A study of Mus musculus with 117 samples.

Results

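The genes described are 10 members of a serpin gene cluster on mouse chromosome 12: 5 Serpina1 genes (Serpina1a, Serpina1b, Serpina1c, Serpina1d and Serpina1e), 4 Serpina3 genes (Serpina3g, Serpina3k, Serpina3m and Serpina3n) and Serpina6. They were chosen by name, as 10 of the 20661 protein-coding genes annotated on chromosomes 1 to 19. Each gene was followed over its annotated span with 2 kb added to each side, cut into 200-bp bins, which gave 655 bins in all. Shares given for a gene refer to this padded span. The samples are hepatocytes of the liver from female mice aged 12 weeks. They come from 9 inbred strains, of which CAST/EiJ, PWK/PhJ and WSB/EiJ are derived from wild mice, NZO/HlLtJ and NOD/ShiLtJ are models of obesity and of autoimmune diabetes, and 129S1/SvImJ, A/J, DBA/2J and C57BL/6J are common laboratory strains. The labels name no treatment and no introduced allele for any of them. Chromatin immunoprecipitation sequencing covered 4 histone marks (H3K4me1, H3K4me3, H3K27ac and H3K27me3) in 3 mice of each strain, with 1 input library per strain. The deposited result is 1 segmentation per strain, which gives each stretch of the genome 1 of 14 state numbers. The libraries of a strain's mice enter 1 segmentation, so n counts strains, and no error within a strain can be given.

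Serpins are protease inhibitors that present a reactive loop to a protease and trap it when the loop is cut. Serpina1 encodes alpha-1 antitrypsin, which hepatocytes secrete into the blood and which protects tissue from neutrophil elastase; the mouse carries several near-identical copies. The Serpina3 genes are relatives of human alpha-1 antichymotrypsin, and several of them are known as acute phase genes that the liver raises in inflammation. Serpina6 encodes corticosteroid-binding globulin, a serpin that carries glucocorticoid hormones in plasma and inhibits no protease. Among the marks profiled, H3K4me3 is known to lie at the starts of active genes, H3K27ac at active promoters and enhancers, H3K4me1 at enhancers and H3K27me3 over genes silenced by Polycomb. The mark content of each state is not given in the sources used here, so a state number is used as a name only.

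On assembly GRCm38, the same assembly as the build mm10 named in the submitters' processing notes, the cluster runs over 767.705 kb. Serpina6 lies at chr12:103646630-103657218. The Serpina1 genes follow in the order Serpina1b (chr12:103728156-103738189), Serpina1d (chr12:103763587-103773633), Serpina1a (chr12:103853295-103863619), Serpina1c (chr12:103894926-103904950) and Serpina1e (chr12:103946931-103956897), all on the minus strand. A gap of 279.249 kb separates Serpina1e from Serpina3g (chr12:104236147-104241939). Serpina3k (chr12:104338486-104345739), Serpina3m (chr12:104387157-104394259) and Serpina3n (chr12:104406646-104414334) complete the cluster, with 12.386 kb between the last 2 of them. Serpina3g and Serpina3n lie on the plus strand, and for Serpina3k, Serpina3m and Serpina6 no start was at hand, so both gene ends were examined. The annotation used gives gene spans without exons, introns or UTRs.

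The 130 bases before the start of the 5 Serpina1 genes are shown because they hold the longest stretch that all 5 genes share. They are printed 5′ to 3′ on the gene's strand, from RefSeq on GRCm38.p6, with the shared 55 bases in capitals.
Serpina1a: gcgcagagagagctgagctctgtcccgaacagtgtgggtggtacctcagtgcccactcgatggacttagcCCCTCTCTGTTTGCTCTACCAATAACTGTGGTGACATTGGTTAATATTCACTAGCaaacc
Serpina1b: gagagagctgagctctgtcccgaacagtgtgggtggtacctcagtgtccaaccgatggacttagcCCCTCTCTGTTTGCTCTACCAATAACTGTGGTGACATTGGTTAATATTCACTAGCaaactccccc
Serpina1c: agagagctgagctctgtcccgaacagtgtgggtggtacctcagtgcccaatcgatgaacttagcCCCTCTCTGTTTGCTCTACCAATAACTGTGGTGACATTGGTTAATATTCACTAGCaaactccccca
Serpina1d: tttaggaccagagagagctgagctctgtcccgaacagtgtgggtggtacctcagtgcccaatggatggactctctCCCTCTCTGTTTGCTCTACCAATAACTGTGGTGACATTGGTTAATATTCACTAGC
Serpina1e: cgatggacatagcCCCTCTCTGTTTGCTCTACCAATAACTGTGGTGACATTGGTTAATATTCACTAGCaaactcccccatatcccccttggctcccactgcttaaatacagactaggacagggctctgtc

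The printed windows are, on the minus strand, chr12:103863620-103863749 for Serpina1a, chr12:103738190-103738319 for Serpina1b, chr12:103904951-103905080 for Serpina1c, chr12:103773634-103773763 for Serpina1d and chr12:103956898-103957027 for Serpina1e. Aligned on the shared stretch with the 60 bases before it, the 10 pairs of genes were 93.9% to 98.3% identical over 115 bases, with a median of 97.4%. The capitals hold GTTAAT, a part of the palindrome bound by the liver factor HNF1, the only motif searched, on both strands. It was present in 5 of 5 Serpina1 windows and in 1950 of 27025 RefSeq promoter windows of 300 bases (7.22%). The motif begins 21 bases before the listed start of Serpina1a, 26 before that of Serpina1b, 27 before that of Serpina1c, 16 before that of Serpina1d and 78 before that of Serpina1e. The listed start of Serpina1e therefore lies farther from this stretch than those of the other 4 genes. The match is a description of the sequence, and binding was not measured.

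Of the Serpina3 genes, Serpina3g and Serpina3n have an entry, and their windows are shown because Serpina3n had state 3 in its start bin in 9 of 9 strains and Serpina3g in none. The longest stretch they share, in capitals, is 10 bases, and GTTAAT was in neither window of 300 bases.
Serpina3g: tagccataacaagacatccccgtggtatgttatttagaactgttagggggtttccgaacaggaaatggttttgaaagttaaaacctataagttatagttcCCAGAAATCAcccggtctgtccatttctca
Serpina3n: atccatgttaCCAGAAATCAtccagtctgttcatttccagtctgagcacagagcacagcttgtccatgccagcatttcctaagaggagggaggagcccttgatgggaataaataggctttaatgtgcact
These are chr12:104236017-104236146 and chr12:104406578-104406707, on the plus strand.

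The segmentations were set beside marker genes. State 3 covered 40.4% ± 1.20 of the start bins of genes with a listed start, against 0.410% ± 0.0420 of all autosomal bins (SD, n = 9 strains). Albumin (Alb) and apolipoprotein A1 (Apoa1) were among the hepatocyte markers. Of these markers, 7 of 7 matched genes had state 3 within 1 kb of either gene end in all 9 strains. No share over all genes is given for this rule. States 1 to 4 covered a median of 98.9% of their spans, from 58.4% at Cps1 to 100%. These states were chosen because earlier results of these data showed them at hepatocyte genes, so their share there is no independent check. The median share was 5.62% for endothelial, 0.844% for Kupffer cell and leukocyte, 0.115% for bile duct and 0% for stellate cell markers. Among these 4 lists, Reln, a stellate marker, was the only gene with state 3 at an end in every strain, and Cd68, a macrophage marker, had the highest share of states 1 to 4, at 71.9%.

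States 1 to 4 covered nearly the whole of 4 Serpina1 genes and of Serpina3k. The share of bins in these states was 98.8% ± 3.65 at Serpina1a, 98.9% ± 2.31 at Serpina1b, 96.7% ± 7.08 at Serpina1c, 99.1% ± 1.20 at Serpina1d and 99.03% ± 1.27 at Serpina3k (SD, n = 9 strains). Serpina3m, at 91.0% ± 7.15, Serpina3n, at 90.8% ± 6.57, and Serpina1e, at 86.7% ± 14.2, were somewhat lower. Serpina6 had 48.3% ± 8.41 of its bins in these states and Serpina3g, a serpin known as a cathepsin inhibitor of immune cells, had 22.9% ± 21.8. Over all autosomal protein-coding genes the share was 13.6% ± 1.45 of bins, and the median gene had 8.13% against 93.9% for the median member.

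**Figure D1:**
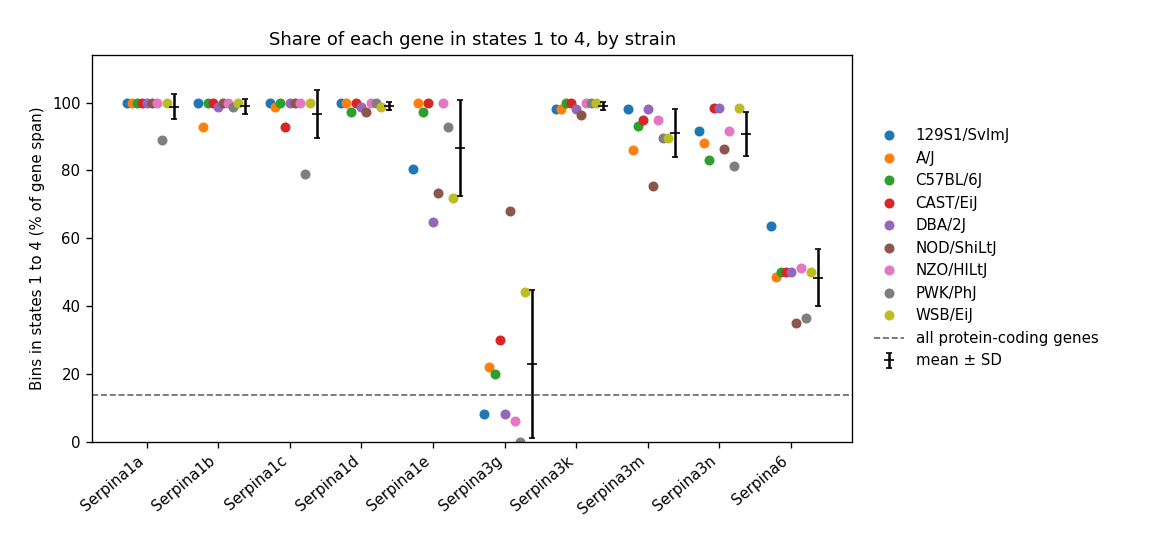
Percentage of each gene's 200-bp bins in states 1 to 4 (vertical axis) for the 10 genes (horizontal axis), with 1 point per strain, the mean with its SD over 9 strains as a bar, and the share over all autosomal protein-coding genes, 13.6%, as a dashed line. Serpina3g spreads from 0% to 68%, on both sides of the line, and every point of the other 9 genes lies above it.

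For 9 of the 10 genes the share of states 1 to 4 was higher than the same strain's share over all protein-coding genes in 9 of 9 strains (adjusted p = 0.00482, two-sided exact permutation test that flips the sign of each strain's difference, Benjamini-Hochberg adjustment over 20661 genes). By the same rule 35.4% of all genes were called higher and 54.4% lower. The raw p of 0.00390625 is the smallest that 9 strains allow, so the p-value does not rank these 9 genes. The difference was 85.4 points ± 1.60 at Serpina1d and 34.7 points ± 7.29 at Serpina6, both SD over 9 strains. At Serpina3g the difference was 9.25 points ± 22.4 (SD), with 5 strains above and 4 below, and did not pass the test (adjusted p = 0.300, exact sign-flip permutation test, n = 9). The strains share ancestry, so they are not fully independent replicates.

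State 14, the most widespread state of the genome, was correspondingly low at most of these genes. It covered 68.3% ± 1.75 of the bins of all protein-coding genes, 0% of Serpina3k and Serpina3m in every strain, 1.22% ± 3.65 of Serpina1a and 0.309% ± 0.926 of Serpina1d. It was called lower at 9 of the 10 genes (adjusted p = 0.00586, the same exact permutation test), where 46.1% of all genes were called lower and 36.1% higher. Serpina3g was the exception, with 73.1% ± 21.6 of its bins in state 14 (adjusted p = 0.528, exact permutation test, n = 9). Each bin holds 1 state, so a bin in states 1 to 4 cannot be in state 14. At the 8 genes with at least 75% of bins in states 1 to 4, the room left for state 14 was below its all-gene share. Their lower call thus follows from those shares and is no separate result. Serpina6, with 48.3% of bins in states 1 to 4, left more room. It had at least 35.1% of bins in these states in every strain. The room left was thus still below the lowest all-gene share of state 14 in any strain, 66.5%. Its lower call therefore follows from the shares as well. State 14 held 9.46% ± 15.3 of the bins of Serpina6 (SD, n = 9 strains). State 13, the second most widespread state, was at 0 of 655 bins in every strain, as were states 5, 7, 10, 11 and 12. All 10 genes are called lower in state 13, as are 70.1% of all genes. A gene at 0 in every strain cannot differ in another direction, so this call adds nothing to the 0.

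Within the Serpina1 genes the states followed an order along the gene. State 1 held 58.3% ± 8.25 of Serpina1a, 58.5% ± 8.25 of Serpina1b, 59.8% ± 17.2 of Serpina1c, 48.3% ± 10.5 of Serpina1d and 34.1% ± 13.2 of Serpina1e, against 4.89% ± 0.386 over all protein-coding genes (SD, n = 9 strains). A block of states 1 and 3 began at or before the start in most strains and reached into the gene. States 2 and 4 filled most of the rest towards the 3′ end, except at Serpina1e in 3 strains. There state 14 covered 5 kb against 2.8 kb of states 2 and 4 in DBA/2J. The lengths were 4 kb against 3.8 kb in WSB/EiJ and 3.8 kb each in NOD/ShiLtJ. Downstream of the start, states 1 and 3 together covered 7.91 kb ± 0.867 at Serpina1a and 8.04 kb ± 0.713 at Serpina1b. The same states covered 8 kb ± 2.43 at Serpina1c, 7.07 kb ± 2.15 at Serpina1d and 4.44 kb ± 1.86 at Serpina1e. These lengths add up all bins in states 1 and 3, which in some strains form several separate runs. Serpina1a and Serpina1b thus had the smallest spread between strains and Serpina1e the smallest length in these states. The 5 copies are nearly identical in sequence, short reads from them may not be placed on 1 copy alone, and their number is known to vary between inbred strains. How the authors placed such reads is not given in the sources used here, and its part in any of the Serpina1 values was not tested.

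**Figure D2:**
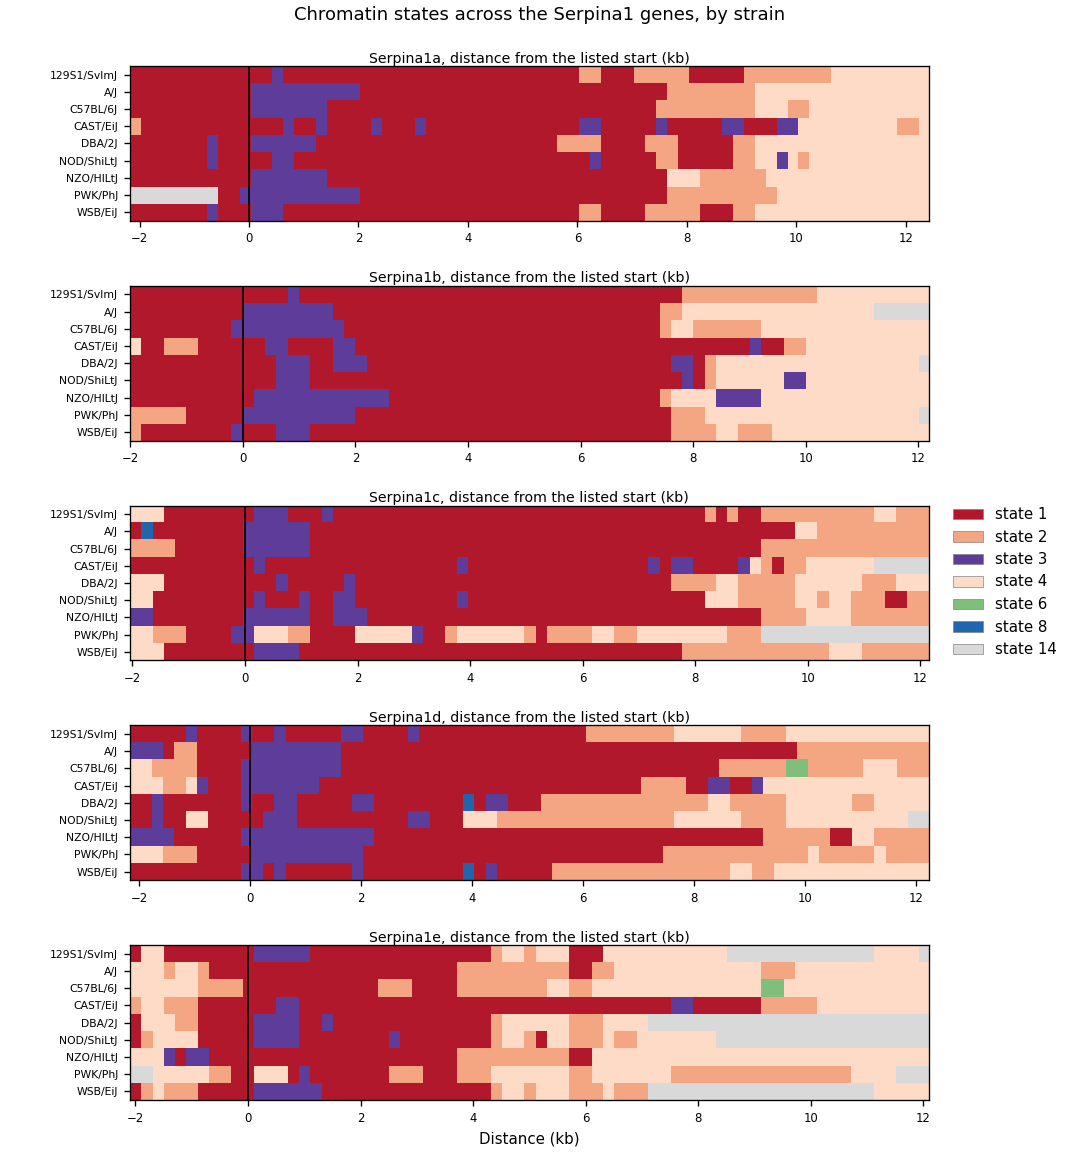
State of each 200-bp bin (colour) along the 5 Serpina1 genes, with 1 row per strain and the distance from the listed start in kb on the horizontal axis, positive into the gene; the black line marks the start. States 1 and 3 lie from the start into the gene, states 2 and 4 follow, and state 14 appears at the far end of Serpina1e in 129S1/SvImJ, DBA/2J, NOD/ShiLtJ, WSB/EiJ and PWK/PhJ.

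State 3 lay within 1 kb of the listed start in all 9 strains at 5 of the 7 genes with a listed start: Serpina1a, Serpina1b, Serpina1c, Serpina1d and Serpina3n. Of all 16456 genes with a listed start, 43% met the same rule. At the 5 hepatocyte markers with a listed start, state 3 held the start bin itself in every strain. The Serpina1 genes differed from this: of their 45 start bins (5 genes in 9 strains), 14 were in state 3 and 31 in state 1. Over all genes with a listed start, state 3 held 40.4% and state 1 held 9.87% of start bins. At the Serpina1 genes the nearest state 3 bin lay downstream of the start bin in 26 of the 45 cases, upstream in 3 and nowhere in the span in 2. No share over all genes is given for these positions. Where a gene had several listed starts, the most upstream one was used. At Serpina3n, by contrast, the start bin was in state 3 in 9 of 9 strains. With the window narrowed to 500 bp to each side, 2 of the 7 genes kept state 3 in all strains.

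The length of state 3 near the start varied between strains. Within 1 kb of the start it covered 800 bp ± 387 at Serpina1a, from 200 bp in 129S1/SvImJ and in CAST/EiJ upward. It covered 822 bp ± 406 at Serpina1b, 689 bp ± 426 at Serpina1c and 911 bp ± 318 at Serpina1d. Serpina1e had the least of the 5 genes, 511 bp ± 401, with none anywhere in its span in A/J and C57BL/6J. In NZO/HlLtJ the nearest state 3 bin of Serpina1e lay 800 bp upstream of the start bin, and in PWK/PhJ it lay 1000 bp downstream. In 129S1/SvImJ, DBA/2J, NOD/ShiLtJ and WSB/EiJ it lay 200 bp downstream, and in CAST/EiJ 600 bp downstream. Serpina1e was thus the only Serpina1 gene that lacked state 3 in its window in some strains.

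Serpina1e also carried the largest amount of state 14 among the Serpina1 genes, 12.99% ± 14.4 of its bins. The state held 35.2% of the padded span in DBA/2J, 28.2% in WSB/EiJ, 26.8% in NOD/ShiLtJ, 19.7% in 129S1/SvImJ and 7.04% in PWK/PhJ. It was at 0% in A/J, C57BL/6J, CAST/EiJ and NZO/HlLtJ, and these 4 strains had mostly states 1 to 4 over the same stretch. PWK/PhJ had 0.6 kb of state 14 downstream of the start and 9.0 kb of states 2 and 4, the most of any strain. In CAST/EiJ state 1 held 64.8% of the gene, the highest value, and in PWK/PhJ 18.3%, the lowest. The unbroken run of states 1 to 4 through the start measured 61.4 kb in CAST/EiJ, a median of 23.0 kb over strains and 13.2 kb in PWK/PhJ. That run in CAST/EiJ left the gene span far behind, and it is the longest at any of the 10 genes.

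At Serpina1d, where state 14 was found in NOD/ShiLtJ alone (2.78% of bins), the strains differed in the total length in states 1 and 3. States 1 and 3 covered 9.8 kb downstream of its start in A/J, 9.6 kb in NZO/HlLtJ, 8.4 kb in C57BL/6J and in CAST/EiJ and 7.4 kb in PWK/PhJ. They covered 6.0 kb in 129S1/SvImJ, 5.2 kb in WSB/EiJ, 5.0 kb in DBA/2J and 3.8 kb in NOD/ShiLtJ. The lower 4 values come from the 4 strains with the most state 14 at Serpina1e. The 6 pairs among these 4 strains differed at 18.1% to 37.5% of the bins of Serpina1d and at 19.7% to 28.2% of those of Serpina1e. Pairs that join 1 of these 4 strains with A/J, C57BL/6J or NZO/HlLtJ differed at 55.6% to 75% and at 45.1% to 67.6%. The 3 pairs among A/J, C57BL/6J and NZO/HlLtJ differed at 19.4% to 27.8% and at 12.7% to 22.5%. CAST/EiJ and PWK/PhJ are in neither of these sets of strains. At Serpina1d CAST/EiJ differed from the other strains at 36.1% to 55.6% of bins and PWK/PhJ at 19.4% (from C57BL/6J) to 70.8% (from NOD/ShiLtJ). At Serpina1e CAST/EiJ differed from every other strain at 46.5% to 69.0% and PWK/PhJ at 47.9% to 69.0%. These strains were set side by side after the maps had been seen, so the contrast is a description without a test. At Serpina1a, the ranges of the first and second kind of pair overlapped (9.59% to 24.7% against 17.8% to 35.6%), as they did at Serpina1b and Serpina1c.

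At Serpina1c the exception was PWK/PhJ. State 1 held 15.5% of the gene there, the lowest value, against a median of 64.8% and a highest value of 73.2% in A/J. State 14 held 21.1% of the padded span in PWK/PhJ, as an unbroken 3.0 kb (chr12:103892801-103895800). That stretch lies mostly in the 3′ flank and ends inside the gene. States 1 and 3 covered 1.8 kb downstream of the start in PWK/PhJ against 7.6 kb to 9.8 kb in the other strains. The 8 pairs with PWK/PhJ differed at 77.5% to 85.9% of bins, and the pairs without it at 12.7% to 38.0%. In the same strain, state 14 held 1.6 kb of the upstream flank of Serpina1a, which was in states 1 to 4 in the other 8 strains. At Serpina1b no strain stood apart to this degree: its pairs differed at 9.86% (DBA/2J and NOD/ShiLtJ) to 42.3% (A/J and CAST/EiJ) of bins.

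**Figure D3:**
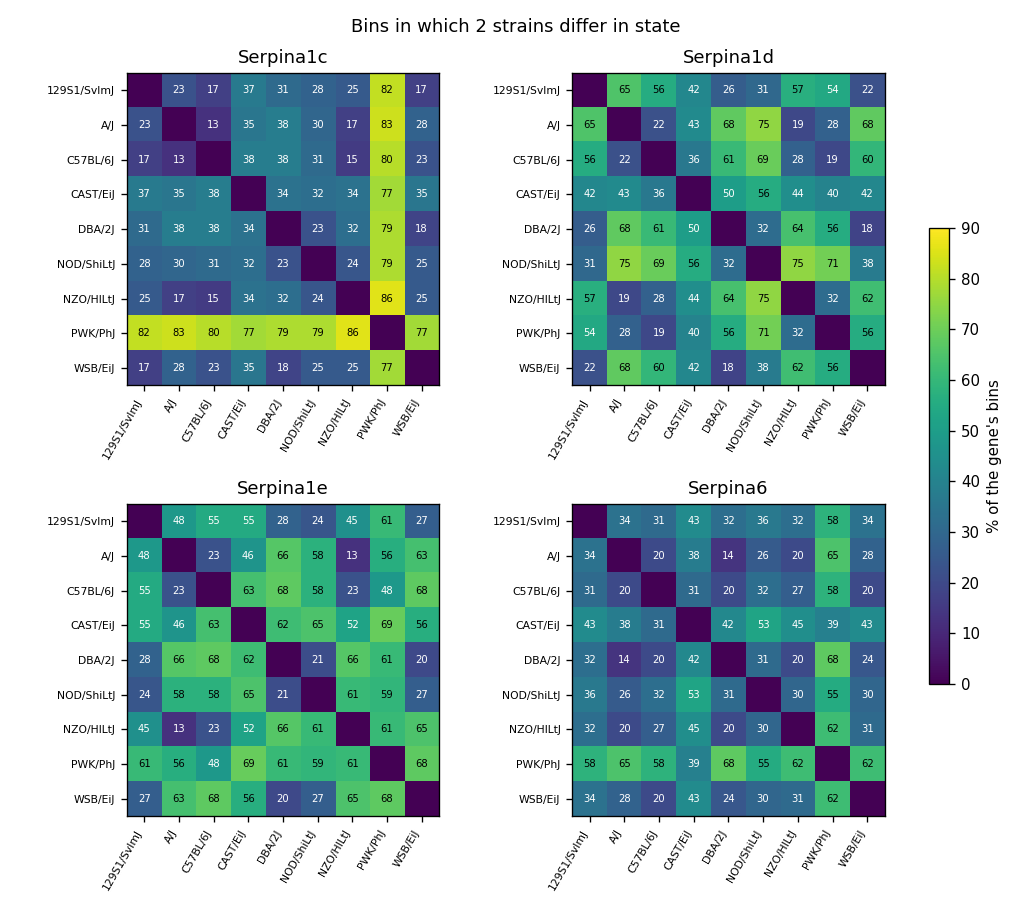
Percentage of bins in which 2 strains carry a different state (colour and number) for each pair of the 9 strains, at Serpina1c, Serpina1d, Serpina1e and Serpina6. PWK/PhJ differs from the other strains at 77.5% to 85.9% of the bins of Serpina1c, and at Serpina1d and Serpina1e low values join 129S1/SvImJ, DBA/2J, NOD/ShiLtJ and WSB/EiJ.

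The Serpina3 genes did not share 1 pattern. Serpina3k, known as a kallikrein-binding protein of plasma, had 60.6% ± 7.34 of its bins in state 1 and 18.9% ± 6.43 in state 4 (SD, n = 9 strains). State 3 held 17.2% ± 11.7 of this gene, the highest mean of the 10 genes. It lay in the bin of the lower-coordinate end in 8 of 9 strains. PWK/PhJ had no state 3 in the gene at all, and state 1 held that bin there. NOD/ShiLtJ had the most, 38.6% of bins, with its longest stretch of 2.6 kb at the higher-coordinate end. State 3 was thus found at both ends of Serpina3k in 6 of 9 strains.

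Serpina3m, a further plasma serpin of the family, had state 3 in the bin of its lower-coordinate end in 9 of 9 strains and none near its higher-coordinate end in any strain. State 1 held 54.2% ± 9.01 and state 2 held 29.4% ± 7.98 of this gene. State 2 took a larger share here than at any other of the 10 genes. NOD/ShiLtJ had 24.6% of Serpina3m in state 6, WSB/EiJ 10.5% and PWK/PhJ 8.77%, while the other 6 strains had none. The 8.2 kb between the padded spans of Serpina3m and Serpina3n was in states 1 to 4 for 99.5% ± 1.63 of its bins, with state 14 in none.

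Serpina3n, an acute phase serpin known to inhibit granzyme B, had state 1 over 54.4% ± 7.83 of its bins and state 3 within 1 kb of its start over 800 bp ± 316. A short stretch of state 8 lay inside the gene in 9 of 9 strains, with a longest run of 422 bp ± 307. Towards the 3′ edge, states 4 or 2 prevailed in 8 strains. In NOD/ShiLtJ state 1 returned instead, so that states 1 and 3 covered 8.0 kb downstream of the start there against a mean of 5.22 kb ± 1.16 over all 9. State 14 entered the gene span in C57BL/6J (6.78%) and PWK/PhJ (8.47%) only.

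Serpina3g carried no bin of state 1, 2 or 3 in any strain, and its share of states 1 to 4 was state 4 throughout. State 4 held 68% of the gene in NOD/ShiLtJ, 44% in WSB/EiJ, 30% in CAST/EiJ, 22% in A/J, 20% in C57BL/6J, 8% in 129S1/SvImJ and in DBA/2J, 6% in NZO/HlLtJ and 0% in PWK/PhJ. The start bin was in state 9 in 129S1/SvImJ, CAST/EiJ and NZO/HlLtJ, in state 4 in NOD/ShiLtJ and WSB/EiJ and in state 14 in the other 4 strains. PWK/PhJ had state 14 over the whole span. Serpina3g differed between strains mainly in whether state 14 was replaced at all: 91.1% of its strain differences involved state 14. That share was 8.71% at Serpina3n and 0% at Serpina3k and Serpina3m. It was not measured for other genes named Serpina3. Of those tested for their states, state 14 held a mean of 37.6% (Serpina3a) to 86.5% (Serpina3j) of bins. Whether Serpina3g is unlike them in this respect was therefore not tested.

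**Figure D4:**
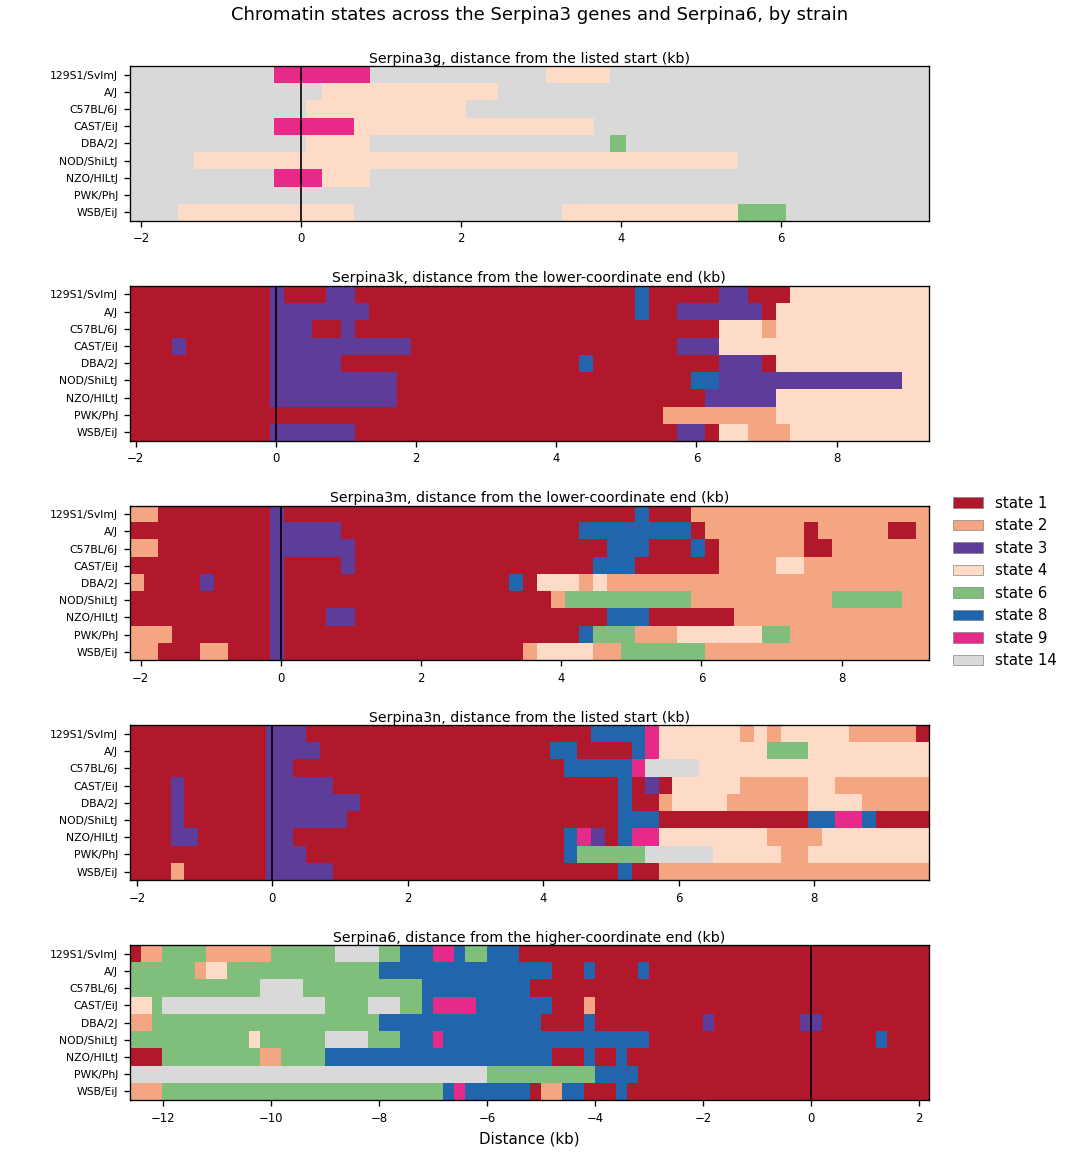
State of each 200-bp bin (colour) along the Serpina3 genes and Serpina6, with 1 row per strain; the horizontal axis gives the distance in kb from the listed start (Serpina3g, Serpina3n), from the lower-coordinate end (Serpina3k, Serpina3m) or from the higher-coordinate end (Serpina6). Serpina3g is mostly state 14, and Serpina6 passes from state 1 through state 8 to state 6 in most strains, with a 6.6 kb stretch of state 14 in PWK/PhJ.

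Serpina6 was divided along its length. State 1 held 44.3% ± 6.11 of its bins, from 33.8% in NOD/ShiLtJ to 52.7% in 129S1/SvImJ, nearly all in the part towards the higher-coordinate end. State 8 held 17.9% ± 9.48 and state 6 held 23.1% ± 8.61 of the gene, against 1.52% ± 0.432 and 4.24% ± 0.451 over all protein-coding genes (SD, n = 9 strains). States 2, 3 and 4 together added little. State 3 occurred in DBA/2J alone, where it held the bin of the higher-coordinate end. That bin was in state 1 in the other 8 strains. State 14 held 44.6% of the gene in PWK/PhJ and 24.3% in CAST/EiJ, 5.41% in 129S1/SvImJ, C57BL/6J and NOD/ShiLtJ and 0% in the other 4 strains. The 8 pairs with PWK/PhJ differed at 39.2% (with CAST/EiJ) to 67.6% (with DBA/2J) of bins.

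The other serpins, taken from lists of the family, showed how far this picture extends. Of 12 other clade A serpins tested, 7 were called higher than all protein-coding genes in states 1 to 4, none lower and 5 neither; their median share was 48.7%. Of 6 liver-secreted serpins of other clades, 6 were called higher, with a median of 93.5%. The 3 highest of both lists were Serpind1 (heparin cofactor II, 99.5% ± 1.08), Serpinf2 (alpha-2 antiplasmin, 99.1% ± 1.21) and Serpinc1 (antithrombin, 94.7% ± 4.00). The 3 lowest were Serpina1f (8.81% ± 7.18), Serpina3j (11.8% ± 13.1) and Serpina3c (17.3% ± 15.2), none of which passed the test. Serpina3g, at 22.9% ± 21.8, lay closer in level to these 3 than to any of the other 9 genes described here. Genes named Serpina3 thus ranged from 11.8% (Serpina3j) to 99.03% (Serpina3k).

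The stretches between the padded Serpina1 genes held fewer bins of states 1 to 4 than any of these 5 genes. The share was 32.1% ± 15.7 (Serpina1b to Serpina1d, 21.2 kb), 33.6% ± 9.97 (Serpina1d to Serpina1a, 75.4 kb), 30.5% ± 15.5 (Serpina1a to Serpina1c, 27.0 kb) and 16.1% ± 18.2 (Serpina1c to Serpina1e, 37.8 kb; all SD, n = 9 strains). CAST/EiJ had the highest value between Serpina1c and Serpina1e, 61.9%, and NOD/ShiLtJ the lowest, 2.65%. The stretch between Serpina6 and Serpina1b (66.6 kb) had 35.1% ± 14.9, and the 275 kb between Serpina1e and Serpina3g had 51.5% ± 10.6, more than Serpina3g itself. Between the Serpina3 genes the share ran from 13.2% ± 7.06 (Serpina3g to Serpina3k) through 47.6% ± 15.1 (Serpina3k to Serpina3m) to the 99.5% between Serpina3m and Serpina3n given above, which exceeds that of both neighbours. Other annotated genes, which may include other serpins, were not taken out of these stretches. The shares therefore do not describe DNA between genes alone.

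To measure how far strains differed, the percentage of bins with a different state was averaged over the 36 pairs of strains. It was 50.2% at Serpina1e, 46.8% at Serpina1d, 39.2% at Serpina1c, 37.1% at Serpina6, 35.1% at Serpina3g, 34.6% at Serpina3n, 31.1% at Serpina3m, 25.3% at Serpina1a, 25.2% at Serpina1b and 21.9% at Serpina3k. All 10 values lay above the median of all protein-coding genes, 20.1%, which 50% of genes exceed. Serpina1c, Serpina1d and Serpina1e lay in the top 10% of genes. Serpina1e had 98.4% and Serpina3k 54.9% of all genes below it. Without PWK/PhJ the value of Serpina1c was 27.4%, and without NOD/ShiLtJ 9 of the 10 genes were above the median. Bins and pairs share strains, so these values carry no test.

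The strains differed mostly in which of states 1 to 4 a bin carried. Of all differences between strains at the 10 genes, 64.4% were between 2 of states 1 to 4, against 10.7% over all protein-coding genes. These states held 84.4% of the bins of the 10 genes and 13.6% over all protein-coding genes. Part of the contrast is thus built in. Exchanges between states 13 and 14 made up 37.5% of all-gene differences and cannot occur at the 10 genes, which hold no state 13. No such share is given for genes of a like make-up. At the 10 genes the commonest exchanges were between states 1 and 2 (18.2% of differences), 1 and 3 (17.5%), 2 and 4 (15.3%) and 4 and 14 (11.8%). Exchanges within states 1 to 4 made up 96.2% of the differences at Serpina1d, 92.2% at Serpina1b, 91.5% at Serpina3k, 90.4% at Serpina1a and 84.2% at Serpina1c. They made up 63.3% at Serpina1e, 62.4% at Serpina3n, 57.9% at Serpina3m, 5.66% at Serpina6 and 0% at Serpina3g. When states 1 to 4 were counted as 1 state, the median of the 10 genes fell from 34.9% to 9.59% of bins, below the 17.2% of the median gene. A gene almost wholly in states 1 to 4 has little left to differ in once these are merged. Then 3 of the 10 genes lay above the all-gene median, as 50% of genes do by construction: Serpina3g (35.1%), Serpina6 (35.0%) and Serpina1e (18.4%).

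The 10 genes were also set beside the 1421 protein-coding genes with at least 75% of their bins in states 1 to 4, a reference added after the values had been seen. The median of those genes was 27.8%, which 50% of them exceed. Of the 8 genes described here that meet this limit, which leaves out Serpina3g and Serpina6, 5 lay above it. Serpina1e had 98.3% of the reference genes below it, Serpina1d 96.3% and Serpina1c 87.9%. Serpina1a (40.5%), Serpina1b (40.3%) and Serpina3k (26.7%) lay below the median of this reference. With states 1 to 4 counted as 1 state, the median of the reference genes was 12.1%.

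**Figure D5:**
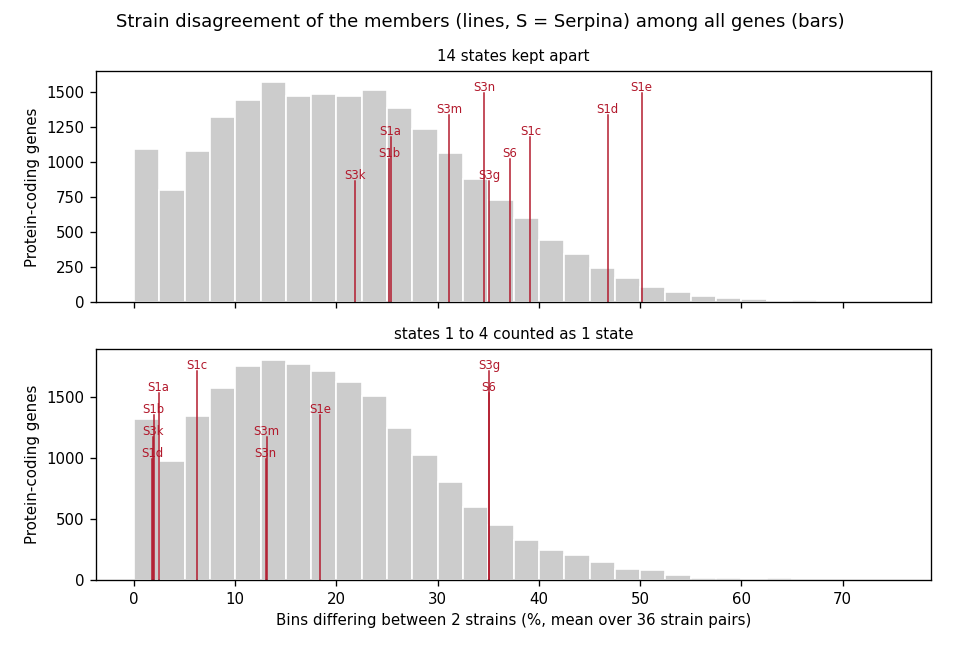
Number of protein-coding genes (grey bars, vertical axis) by the mean percentage of bins that differ between 2 strains (horizontal axis), with the 10 genes as red lines labelled S for Serpina. With 14 states kept apart all 10 lines lie above the all-gene median of 20.1%; with states 1 to 4 counted as 1 state, 7 of the 10 lie below the median of 17.2%.

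Part of each gene carried the same state in all 9 strains. This held for 32 of 71 bins at Serpina1b, 28 of 73 at Serpina1a, 27 of 57 at Serpina3k, 24 of 59 at Serpina3n, 22 of 74 at Serpina6 and 18 of 57 at Serpina3m. It held for 12 of 50 at Serpina3g, 10 of 72 at Serpina1d, 9 of 71 at Serpina1e and 8 of 71 at Serpina1c. State 1 made up 75% or more of these shared bins at every gene except Serpina3g, where all 12 were in state 14. In a further 106 of the 655 bins (16.2%), 8 strains agreed and 1 differed, against 14.9% of autosomal bins. PWK/PhJ was the differing strain in 43 of them (6.56% of bins, against 4.56% of autosomal bins) and NOD/ShiLtJ in 18 (2.75% against 1.51%). At Serpina1c PWK/PhJ alone accounted for 24 of 71 bins, and at Serpina3k NOD/ShiLtJ for 8 of 57.

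Among 20450 other protein-coding genes of at least 25 bins, the make-up of states nearest to the Serpina1 mean was that of Khk, the ketohexokinase of fructose metabolism, followed by Srsf4, a splicing factor, and Dazap1, an RNA-binding protein. Likeness was measured as the summed difference of the 14 state shares divided by 2, averaged over 9 strains, where 0 is identity. It was 0.0964 for Khk, 0.108 for Srsf4 and 0.1101 for Dazap1, with a median of 0.880 over all genes compared. The Serpina1 genes themselves lay at 0.108 (Serpina1a) to 0.259 (Serpina1e) from their own mean. Nearest to Serpina6 were Acot3, an acyl-CoA thioesterase (0.203), Tmem30a (0.253) and H2bc4, a histone gene (0.260), with a median of 0.795. Nearest to the Serpina3 mean were Mettl7a1 (0.152), Agtr1a, an angiotensin receptor (0.156), and the channel gene Aqp9 (0.157), but that mean joins unlike genes, since Serpina3g lay at 0.674 from it and Serpina3n, the closest member, at 0.272.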

How the data were processed

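The deposited file of each strain is a list of intervals with the number of a chromatin state, a category rather than a count, signal or score, and belongs to 1 strain per the file headers. Per the submitters' processing notes the build is mm10, and FastQC 0.11.5 and MACS 1.4.2 were used, with no role given. The aligner, the segmentation tool, read filters and the treatment of reads that match several copies are not given in the sources used here. The sequencing depth is unknown, so no counting error is given. The 117 libraries (13 per strain) were grouped by the strain in their labels.

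Segments were written as 200-bp bins. Gene positions and promoter sequences are from RefSeq tables of assembly GRCm38.p6; 7 of the 10 genes had a listed start. For each gene and strain the percentage of bins in a state over the span padded by 2 kb was taken, minus that strain's percentage over all autosomal protein-coding genes, and tested with a two-sided exact permutation test that flips signs over 9 strains (512 patterns), with Benjamini-Hochberg adjustment over 20661 genes and a threshold of 0.05. The script recovered the planted genes when tested on simulated data. Bins and strains were independent in that simulation, unlike here, so it gives no error rate for these data. All 10 genes are named; from the serpin lists the 3 highest and 3 lowest in states 1 to 4 are named, and the 3 nearest genes per profile. The members, lists and states 1 to 4 were chosen with earlier results of these data known. States 1 to 4 were picked because those results showed them at hepatocyte genes. Of the lists, Serpina3h and Serpina7, and the markers Tf and Vsig4, were not matched to an autosomal protein-coding gene and were not analysed here. Alternatives were other paddings, merged states, single-bin segments removed, other windows, another background and each strain left out. The tools were biopython 1.88, matplotlib 3.10.9, numpy 2.4.6, scipy 1.17.1 and pandas 2.3.3 in Python 3.11.15.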

Additional observations from a re-analysis of the deposited data

Results flagged for a closer look

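Each gene's 9 strain values were examined for a strain far from the rest, both for the share of states 1 to 4 and for the mean percentage of bins that differ from the other strains. Of 20 such sets of 9 values, 8 held a strain whose gap to its nearest neighbour was large for the range of the set. The limit used flags about 1 in 20 sets of independent, normally distributed values. Shares that pile up at 100% and differences that share strain pairs are not such values. That rate therefore does not apply here, and the 8 sets are a description without a test. In the share of states 1 to 4, PWK/PhJ stood apart at Serpina1a with 89.04% of bins against 100% in the other 8 strains. It also stood apart at Serpina1c with 78.87% against 92.96% to 100%. A/J stood apart at Serpina1b with 92.96% against 98.59% to 100%, and NOD/ShiLtJ at Serpina3k with 96.49% against 98.25% to 100%. The ceiling of 100% makes these gaps small in absolute terms at Serpina1b and Serpina3k.

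In the difference from the other strains, PWK/PhJ stood apart at Serpina1c with 80.46% of bins against 31.16% to 40.32%, and at Serpina6 with 58.45% against 30.07% to 41.72%. NOD/ShiLtJ stood apart at Serpina1d with 55.73% against 43.92% to 48.61%, and at Serpina3n with 45.34% against 29.87% to 37.29%. PWK/PhJ and NOD/ShiLtJ thus account for 7 of the 8 sets.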

How the results depend on the processing

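The numbers of the 10 genes called higher or lower in states 1 to 4, state 13 and state 14 stayed at 9 and 0, 0 and 10, and 0 and 9 in every alternative run, including each strain left out. The median share of states 1 to 4 was 65.03% with a padding of 10 kb and 93.22 to 95.43% with 1 strain left out. The median strain difference was 9.588% with states 1 to 4 counted as 1 state, 28.57% when a match within 1 bin counted as the same, and 30.37 to 36.35% with 1 strain left out. The number of genes above the all-gene median of strain difference was 3 with states 1 to 4 counted as 1 state and 9 to 10 with 1 strain left out. Of the 8 genes with at least 75% of bins in states 1 to 4, 5 lay above the median of such genes. The number of genes with state 3 near the start in all strains was 2 with a window of 500 bp. The number of bins in which 1 strain differed was 65 with no padding. The causes of these shifts were not tested. With states 1 to 4 counted as 1 state, the median strain difference of the 10 genes turned from above to below that of all genes (17.2%). No paired analysis was possible because the mice of a strain are joined in 1 segmentation, so no value per replicate number exists in the files used. Depth per strain is unknown, so what depth limits cannot be stated.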
